A study of Mus musculus with 8 samples.

Results

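The 10 genes described here are the hypoxia-inducible factor (HIF) subunits Hif1a, Epas1 and Arnt and 7 genes known to be induced by low oxygen: Vegfa, Adm, Bhlhe40, Nfil3, Bnip3, Bnip3l and Ankrd37. They were taken by symbol from the platform annotation, and each of the 10 was measured by 1 probe set named for that gene alone, among 19505 genes in all. The cells were hematopoietic stem cells from bone marrow of 6 to 10 week old mice, sorted as lineage-negative cells that carry c-Kit, Sca-1 and CD150 and lack CD48. The eltrombopag group held 4 arrays of cells exposed to the drug at 10 µg/ml for 16 h, and the vehicle group held 4 arrays of cells given sterile water for the same time. Both groups were cultured in the same medium with stem cell factor at 100 ng/ml. Strain, sex, the oxygen level of the culture, and whether each array came from its own animals are not given in the sources used here. P-values therefore weigh differences against the spread of these samples only, and may not carry over to other animals. The arrays are numbered 1 to 4 in each group.

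HIF is a transcription factor made of an oxygen-regulated alpha subunit, encoded by Hif1a or Epas1, and the constant partner encoded by Arnt. Prolyl hydroxylases that need oxygen and iron mark the alpha subunits for destruction through the VHL ubiquitin ligase, so that low oxygen or loss of iron can stabilise the proteins. Stable HIF binds short hypoxia response elements and raises genes of glycolysis, vessel growth and the removal of mitochondria, and Hif1a is known as a guardian of stem cell quiescence in bone marrow. Eltrombopag is a small molecule that activates the human thrombopoietin receptor, is known not to act on the mouse receptor, and binds iron. The question put to the arrays is which genes of mouse stem cells change their transcript level under the drug. HIF is controlled largely at the level of its proteins, which were not measured here.

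Promoter sequences from RefSeq (GRCm38.p6) were available for 7 of the 10 genes. The core of the hypoxia response element was searched as ACGTG and GCGTG on both strands in the 250 bases before the listed start. ACGTG lay in 3 of the 7 windows (Bnip3, Hif1a and Ankrd37), against 16.6% of all 32851 promoter windows of that length in the table. GCGTG lay in 4 of the 7 (Bnip3, Adm, Ankrd37 and Arnt), against 28.2% of all windows. The sequences below are shown because they hold the clearest matches, with Vegfa added as a gene whose values differed widely between arrays. Capitals mark the matches on either strand (CACGT and CACGC are the reverse strand). Each sequence ends at the base before the start.
Bnip3, chr7:138909507-138909656, minus strand: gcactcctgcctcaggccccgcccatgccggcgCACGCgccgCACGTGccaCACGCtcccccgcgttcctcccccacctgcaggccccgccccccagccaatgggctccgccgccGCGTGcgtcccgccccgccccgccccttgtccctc
Hif1a, chr12:73907717-73907866, plus strand: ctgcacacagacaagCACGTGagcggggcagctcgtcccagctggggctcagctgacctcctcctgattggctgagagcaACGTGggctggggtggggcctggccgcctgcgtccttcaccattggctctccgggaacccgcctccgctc
Adm, chr7:110627507-110627656, plus strand: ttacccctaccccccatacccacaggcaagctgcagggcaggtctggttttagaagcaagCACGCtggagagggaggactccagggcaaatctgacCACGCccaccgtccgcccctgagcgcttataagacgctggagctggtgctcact
Vegfa, chr17:46032378-46032527, minus strand: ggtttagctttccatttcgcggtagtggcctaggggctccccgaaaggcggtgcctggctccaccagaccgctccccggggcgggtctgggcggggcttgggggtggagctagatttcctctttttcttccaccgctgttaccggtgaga
Ankrd37, chr8:45999851-45999880, minus strand: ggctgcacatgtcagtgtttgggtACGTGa
In Bnip3 and Hif1a a marked stretch is CACGTG, the E-box that the Bhlhe40 protein binds, so that stretch fits both motifs. Outside it, Hif1a also holds an ACGTG and Bnip3 holds GCGTG matches. CACGTG lay in 6.02% of all windows. The D-box bound by the Nfil3 protein was searched as TTACGTAA and TTATGTAA and lay in 0 of the 7 windows, against 0.113% and 0.819% of all windows. A match is a description of letters and no evidence of binding. Vegfa had no match in its window, but bases further upstream were not searched, so elements there would be missed for any of these genes.

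None of the 10 genes passed the test between eltrombopag and vehicle. At an adjusted p under 0.05, limma made 0 calls among 19505 genes, a background of 0%. For all 10 the adjusted p was 0.9998. Without adjustment, 650 genes or 3.33% of all had a p under 0.05, and 0 of the 10 did. Of the 10, 5 had a higher and 5 a lower mean with eltrombopag, with a median log2 difference of -0.0083, beside 52.3% higher and a median of 0.0071 over all genes. For 9 of the 10 genes the 95% interval left out both a doubling and a halving, the exception being Bhlhe40. A 1.5-fold change either way was left out for 7 of the 10, the exceptions being Bhlhe40, Nfil3 and Vegfa. The same held for 98.7% of all genes at 2-fold and for 88.0% at 1.5-fold. These intervals come from the fit with group alone. With the array number as a block, which pairs the arrays, the intervals left out a 1.5-fold change for all 10 genes, beside 90.8% of all genes, and a 2-fold change for 99.3% of all genes. The labels do not state such a pairing. The paired interval was -0.52 to 0.060 for Bhlhe40, -0.39 to 0.029 for Nfil3 and -0.29 to 0.29 for Vegfa. In bulk samples such as these, fewer cells of a type and less RNA per cell cannot be told apart.

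Across the series the arrays parted by number rather than by treatment. A principal component analysis over all genes, whose first component took 25.5% of the variance, scored the arrays numbered 1 and 2 at -18.8 to -11.0 and those numbered 3 and 4 at 14.0 to 15.6, whichever the treatment. The Y-linked gene Uty, which marks male cells, had a log2 value of 6.98 in eltrombopag array 3 and 7.71 in vehicle array 3, and at most 3.31 in the other 6 arrays. Of the markers used in the sort, Kit, which encodes c-Kit, had log2 values of 12.88 ± 0.050 with eltrombopag and 12.89 ± 0.049 with vehicle (SD, n = 4 each). Slamf1, which encodes CD150, had 7.07 ± 0.65 with eltrombopag and 7.01 ± 0.31 with vehicle. Cd48, whose protein the sort selects against, had 6.21 ± 0.39 with eltrombopag and 5.96 ± 0.22 with vehicle, above the arrays' mean lower quartile of 4.96, and Sca-1 was not analysed here. The 5 mast cell and basophil markers all had means below the lower quartile of all genes. In the summed level of 8 stromal and endothelial markers, a class of cells in which Epas1 is known to be high, the eltrombopag arrays (log2 10.32 to 10.51) and the vehicle arrays (10.27 to 10.53) overlapped. The sum was taken on the linear scale. Pecam1 (8.96 with eltrombopag, 9.09 with vehicle) and Emcn (8.61 and 8.11) therefore weigh most in it. Cdh5 (4.23 and 4.34) and Lepr (3.56 and 3.59) lay below the lower quartile. Whether the sum reflects stromal or endothelial cells was not tested. Of the 8 markers 1, Emcn, was higher and 7 were lower with eltrombopag (median log2 difference -0.13), and none passed.

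Hif1a encodes the alpha subunit found in nearly all cells. Its log2 values in arrays 1 to 4 were 8.85, 9.15, 8.81 and 8.25 with eltrombopag. They were 8.97, 8.92, 8.41 and 8.66 with vehicle. The groups overlapped, and the highest and the lowest of the 8 arrays both belonged to the eltrombopag group. The log2 difference was 0.026 (SE 0.19, 95% interval -0.40 to 0.45). Between arrays of the same number the difference was -0.11, 0.22, 0.40 and -0.41 for numbers 1 to 4, so 2 of the 4 pairs went each way. The sign of the mean difference also turned when single arrays were left out (range -0.10 to 0.20), and no direction is given.

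Epas1 encodes the second alpha subunit, HIF-2 alpha, known for driving erythropoietin and for its role in endothelial cells. Its log2 values were 6.58, 6.64, 7.03 and 7.18 with eltrombopag. They were 6.74, 6.89, 7.02 and 6.93 with vehicle. The arrays numbered 3 and 4 lay above those numbered 1 and 2, and the 4 eltrombopag values spread more widely than the vehicle values, which all fell within their range. The log2 difference was -0.035 (SE 0.14, interval -0.35 to 0.28), lower in 2 of 4 pairs, and its sign turned when single arrays were left out (-0.14 to 0.057).

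Arnt encodes HIF-1 beta, the partner that both alpha subunits need to bind DNA and that the aryl hydrocarbon receptor also uses. It had 9.42, 9.33, 9.63 and 9.41 with eltrombopag. It had 9.19, 9.50, 9.57 and 9.59 with vehicle. The groups overlapped almost wholly, and the log2 difference of -0.019 (SE 0.12, interval -0.28 to 0.24) had 2 pairs on each side of 0. Leaving out single arrays moved it between -0.11 and 0.024.

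Of the secreted products, Vegfa encodes the growth factor that drives vessel formation. Its log2 values were 9.78, 9.91, 9.23 and 8.98 with eltrombopag. They were 10.13, 9.97, 8.92 and 8.86 with vehicle. In both groups arrays 1 and 2 were high and arrays 3 and 4 low, and the eltrombopag values lay wholly inside the range of the vehicle values. The group means differed by 0.0021 on the log2 scale (SE 0.31, interval -0.70 to 0.70). Paired by number, the difference was -0.35 and -0.066 for numbers 1 and 2, and 0.31 and 0.12 for numbers 3 and 4, so that the gap between the high and the low arrays was narrower with eltrombopag. For Bhlhe40 and Nfil3, described below, the gap between arrays 1 and 2 and arrays 3 and 4 was wider with eltrombopag. These differences in the gap were seen after the values were examined and were not tested.

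Adm encodes adrenomedullin, a peptide that widens vessels and signals through the receptor Calcrl with a Ramp partner. It had 4.65, 4.12, 4.01 and 4.13 with eltrombopag. It had 4.73, 4.47, 4.18 and 4.19 with vehicle. Adm was dim in every array, below that lower quartile, and array 1 was the highest in both groups. The log2 difference was -0.17 (SE 0.17, interval -0.54 to 0.20), lower with eltrombopag in 4 of 4 pairs, and it did not pass. It was -0.31 without eltrombopag array 1 and -0.055 without vehicle array 1. How far the array values of so dim a gene follow its transcript is not known here.

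Among the transcription factors, Bhlhe40 (also called Dec1 or Stra13) encodes a repressor that HIF induces and that also acts in the circadian clock. Its log2 values were 9.16, 9.43, 7.87 and 7.63 with eltrombopag. They were 9.37, 9.28, 8.23 and 8.13 with vehicle. In both groups arrays 1 and 2 were high, at 9.16 or more, and arrays 3 and 4 low, at 8.23 or less. The log2 difference of -0.23 had an SE of 0.43 and an interval of -1.19 to 0.72, the widest of the 10 genes in the fit with group alone. With the number as a block the SE was 0.12 for Bhlhe40, and Hif1a had the largest at 0.14. By number the difference for Bhlhe40 was -0.21, 0.15, -0.36 and -0.51. Without eltrombopag array 4 the difference was 0.067, and leaving out single arrays gave a range of -0.53 to 0.067. Leaving out 1 array makes the groups differ in their share of high and low arrays, which shifts the mean difference by itself. With the same numbers in both groups, the difference was -0.031 in numbers 1 and 2 and -0.43 in numbers 3 and 4. Without both arrays numbered 3 it was -0.19.

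Nfil3 (E4BP4) encodes a basic leucine zipper repressor that binds D-boxes and is needed for natural killer and innate lymphoid cells. Its log2 values were 8.15, 7.76, 6.85 and 7.10 with eltrombopag. They were 8.21, 7.97, 7.13 and 7.27 with vehicle. The same arrays as for Bhlhe40 were high and low, and within each number the eltrombopag array was the lower one. The log2 difference was -0.18 (SE 0.31, interval -0.87 to 0.51). By number it was -0.062, -0.22, -0.28 and -0.17, lower in 4 of 4 pairs. With the number as a block the SE was 0.089 and the adjusted p 0.984 in limma, so the gene did not pass in that fit either. Without eltrombopag array 3 the unblocked difference was 0.023 and without vehicle array 1 it was 0.0071. In those fits too the groups differ in their share of high and low arrays. With the same numbers in both groups, the difference was -0.14 in numbers 1 and 2 and -0.22 in numbers 3 and 4. Without both arrays numbered 3 it was -0.15.

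**Figure D1:**
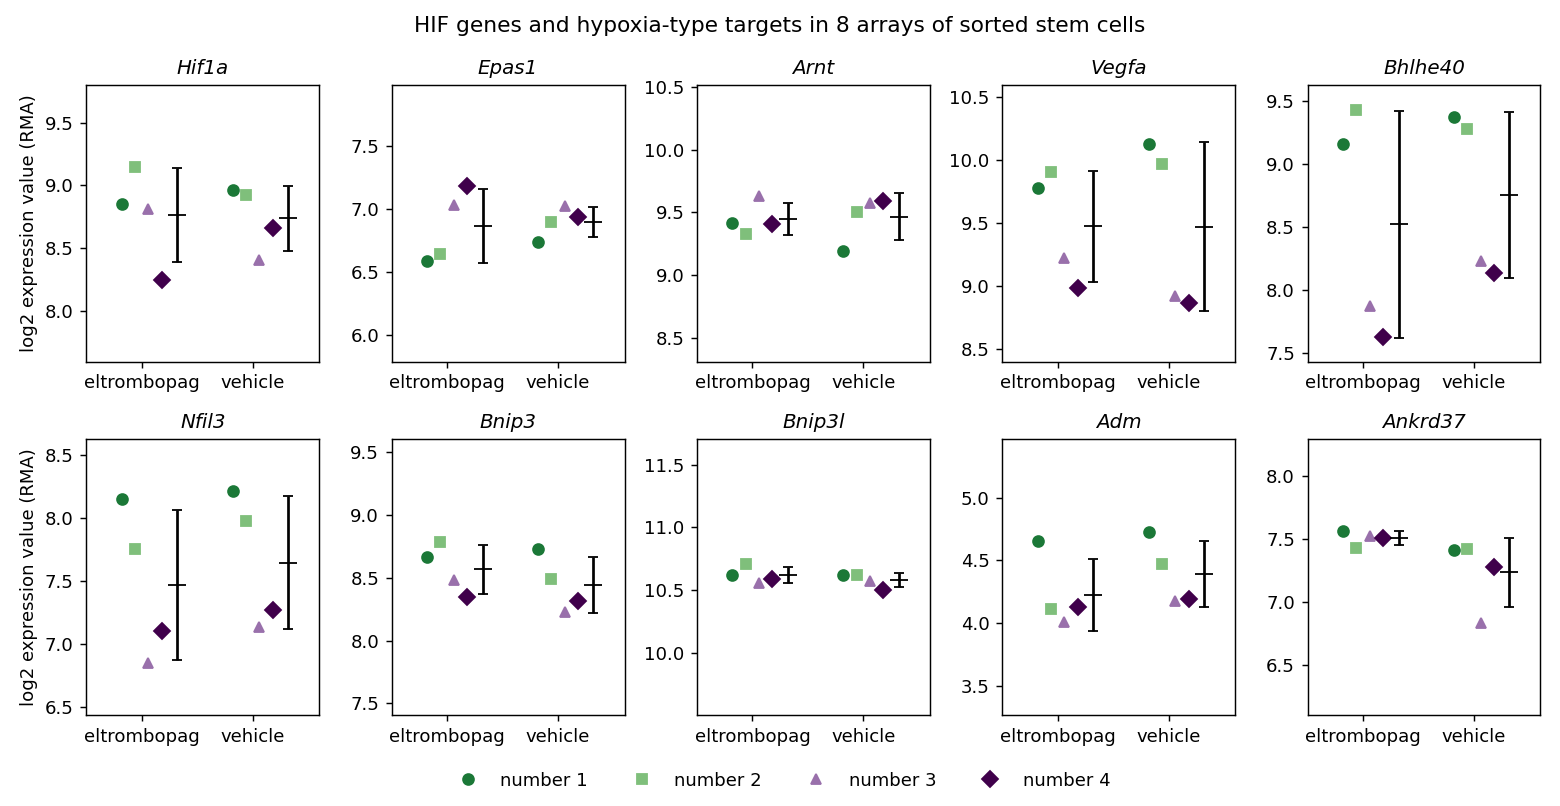
Log2 expression values (vertical axis, all panels drawn to the same scale) of the 10 genes in the eltrombopag and vehicle arrays; symbols give the array number, and the bar is the mean with its SD (n = 4). Bhlhe40, Nfil3 and Vegfa split by number in both groups, Bnip3l lies between 10.51 and 10.71 in all 8 arrays, and only Ankrd37 has groups that do not overlap.

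Bnip3 and Bnip3l (Nix) encode related mitochondrial outer membrane proteins that recruit the autophagy machinery to mitochondria. Bnip3l is needed to clear mitochondria from maturing red cells. Bnip3 had log2 values of 8.66, 8.78, 8.48 and 8.34 with eltrombopag. It had 8.73, 8.49, 8.23 and 8.32 with vehicle. The groups overlapped, and the log2 difference was 0.13 (SE 0.14, interval -0.18 to 0.43), higher in 3 of 4 pairs. Leaving out single arrays moved it between 0.055 (without eltrombopag array 2) and 0.22 (without vehicle array 1). Bnip3l had 10.62, 10.71, 10.56 and 10.59 with eltrombopag. It had 10.63, 10.62, 10.57 and 10.51 with vehicle. It was the steadiest of the 10 genes, with an SD of 0.059 over the 8 arrays where the median gene had 0.18, and 98.8% of all genes had a larger SD. Its log2 difference of 0.037 had an interval of -0.15 to 0.23, so of the 10 genes it was bounded most closely around 0. It ranged from 0.0079 to 0.057 with single arrays left out.

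Ankrd37 encodes an ankyrin repeat protein of unclear function that HIF-1 induces. Its log2 values were 7.56, 7.43, 7.53 and 7.51 with eltrombopag. They were 7.41, 7.42, 6.84 and 7.28 with vehicle. It was the only one of the 10 genes whose groups did not overlap, and eltrombopag array 2 stood just above vehicle array 2. Over all genes, 1.12% had every eltrombopag value above every vehicle value. The log2 difference was 0.27 (SE 0.13, interval -0.026 to 0.56, unadjusted p 0.0694 and adjusted p 0.9998 in limma), higher in 4 of 4 pairs. The pairs gave 0.15, 0.0081, 0.69 and 0.23, the largest resting on vehicle array 3. Without vehicle array 3 the difference was 0.14.

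**Figure D2:**
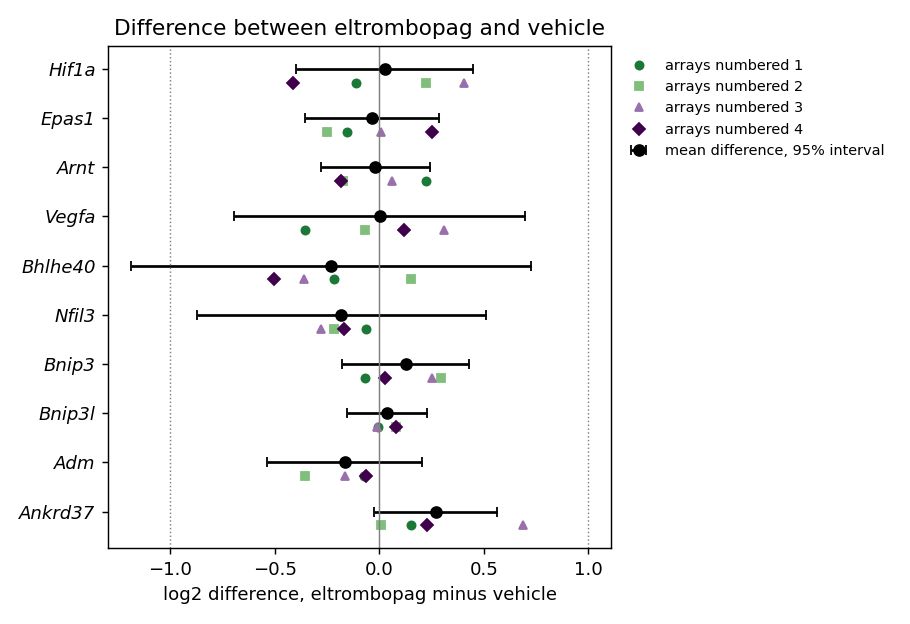
Log2 difference, eltrombopag minus vehicle (horizontal axis), for each of the 10 genes: black points are mean differences with 95% intervals from limma's fit with group alone, and coloured symbols are the differences between arrays of the same number. Dotted lines mark a 2-fold change in either direction. Every interval includes 0, and the interval of Bhlhe40 alone crosses a dotted line.

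Some of the 10 genes differed more between array numbers than between treatments. limma's F test for differences among the 4 numbers, in a fit with group and number, called 41 of 19505 genes (0.210%) and 2 of the 10 genes, Bhlhe40 and Nfil3. Their adjusted p in that F test was 0.0416 each. The genes were picked with earlier results of these data known, so this count is a description. The 2 arrays of a number are 1 from each group, and they may share animals or a day of work, which the labels do not say. In this test they count as independent. The arrays numbered 3 alone had a high value of Uty, which marks male cells, and its part in the differences among numbers was not tested.

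For Bhlhe40, the mean of the 2 arrays of a number was 9.27, 9.36, 8.05 and 7.88 for numbers 1 to 4, a span of 1.47 on the log2 scale or 2.78-fold. For Nfil3 the means were 8.18, 7.86, 6.99 and 7.18, a span of 2.28-fold. The 2 genes thus parted numbers 1 and 2 from numbers 3 and 4. Vegfa followed the same order with means of 9.95, 9.94, 9.07 and 8.92, a span of 2.04-fold, but did not pass (adjusted p 0.137 in limma's F test). Its unadjusted p was 0.000773, and it ranked 110 among all genes by that p. Adm spanned 1.51-fold with number 1 highest (adjusted p 0.356). Only 0.287% of all genes had a larger SD over the 8 arrays than Bhlhe40, 1.46% a larger one than Nfil3 and 1.5% a larger one than Vegfa.

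Among the remaining genes the spans were smaller, and none passed the F test. Hif1a spanned 0.58 on the log2 scale (adjusted p 0.527), with the arrays numbered 1 and 2 all above those numbered 3 and 4. Bnip3 and Bnip3l showed the same order with spans of 1.29-fold and 1.09-fold. Epas1 ran the other way, with means of 6.66, 6.77, 7.03 and 7.06 and a span of 1.32-fold (adjusted p 0.551). Arnt (1.23-fold) and Ankrd37 (1.24-fold) overlapped between these sets of numbers. At an unadjusted p under 0.05, 4 of the 10 genes differed among numbers, beside 10.2% of all genes.

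With both arrays of any 1 number left out, 0 of the 10 genes were called, the smallest adjusted p among them was 0.105 to 0.166, and the calls over all genes were 2 to 13 in place of 41. Fewer arrays then entered the test. The F value was 37.2 to 52.4 for Bhlhe40 and 26.8 to 42.2 for Nfil3 with a number left out. With all 4 numbers it was 39.5 for each gene. F values over fewer numbers are not on the same scale, and the reason for the loss of calls was not tested. Unadjusted p with a number left out was at most 0.000411 for Bhlhe40 and 0.00101 for Nfil3 in limma.

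The summed levels of some marker lists, added on the linear scale, also separated arrays 1 and 2 from arrays 3 and 4. The summed level of 8 myeloid markers was log2 10.00 to 10.13 in arrays 1 and 2 and 10.23 to 10.32 in arrays 3 and 4. That of 9 stem cell markers was 12.91 to 12.99 in arrays 1 and 2 and 13.20 to 13.30 in arrays 3 and 4. That of 5 erythroid markers was 10.05 to 10.36 in arrays 1 and 2 and 10.40 to 10.63 in arrays 3 and 4. Those of the megakaryocyte, lymphoid, mast cell and basophil, and stromal and endothelial lists overlapped between these sets of arrays. Tfr2 makes up most of the erythroid sum, with group means of 9.87 and 9.96 where the other erythroid markers had at most 6.93. At an unadjusted p under 0.05 in limma's F test, 4 of 8 myeloid, 2 of 9 stem cell and 1 of 5 erythroid markers differed among numbers. Over all genes 10.2% did. No marker in any of the lists passed the F test, and their part in the difference between numbers was not tested.

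**Figure D3:**
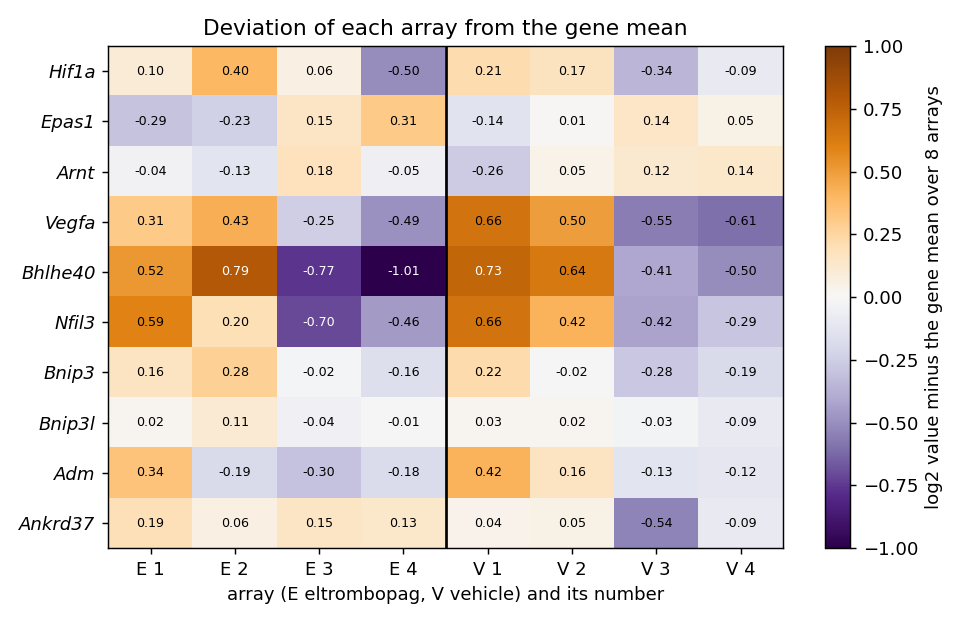
Log2 value of each array minus the gene's mean over all 8 arrays, with eltrombopag arrays (E 1 to E 4) left of the line and vehicle arrays (V 1 to V 4) right of it; orange is above and purple below the mean. Bhlhe40, Nfil3 and Vegfa are orange in arrays 1 and 2 and purple in arrays 3 and 4 of both groups, while Epas1 runs largely the other way.

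The genes that control HIF were measured in 18 of 19 cases. Of them 11 were higher and 7 lower with eltrombopag (median log2 difference 0.0042), and 0 passed in limma, with 0 at an unadjusted p under 0.05. The oxygen and iron sensors themselves are the prolyl hydroxylases. Egln1 had log2 values of 8.88, 8.71, 8.71 and 8.18 with eltrombopag, against 8.45, 8.92, 9.09 and 8.62 with vehicle (difference -0.15, interval -0.54 to 0.24). Egln3, itself a HIF target, had 9.35, 9.65, 8.93 and 8.81 with eltrombopag, against 8.79, 9.66, 9.42 and 9.41 with vehicle (difference -0.13, interval -0.62 to 0.35). In both genes the pair numbered 1 was higher and the other 3 pairs were lower with the drug. Egln2 differed by -0.13 (SE 0.094), lower in 4 of 4 pairs with overlapping groups.

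Vhl, which recognises the hydroxylated alpha subunits, differed by -0.090 (SE 0.23). Hif1an, the asparaginyl hydroxylase FIH that blocks coactivator binding, differed by 0.011 (SE 0.21), and Hif3a, an alpha subunit that can restrain the others, by -0.20 (SE 0.17). Elob, an elongin in the VHL ligase, had the smallest p of the list with a difference of 0.16 (SE 0.11, higher in 4 of 4 pairs). None of these 4 genes passed.

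Known HIF targets outside the 10 genes were read from 2 lists, and 0 of their members passed. Of 18 glycolytic targets 7 were higher and 11 lower (median log2 difference -0.057). The 2 with the smallest p were both lower. Aldoc, an aldolase, had 7.09, 7.21, 7.25 and 7.35 with eltrombopag, against 7.82, 8.01, 7.45 and 7.92 with vehicle. Its groups did not overlap, and the log2 difference was -0.57 (SE 0.13, interval -0.86 to -0.29). Unadjusted p was 0.00110 and adjusted p 0.9998 in limma, and no other gene of the 18 had an unadjusted p under 0.05. Over all genes, 195 of 19505 had every eltrombopag value below every vehicle value. Eno2, an enolase, differed by -0.28 (SE 0.14).

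Of 33 targets outside glycolysis 17 were higher and 16 lower (median 0.0024). Insig2, which holds back sterol synthesis, had the smallest p with a log2 difference of -0.34 (SE 0.19), lower in 4 of 4 pairs. Epo, erythropoietin, lay near the arrays' lower quartile and differed by 0.23 (SE 0.13). Neither passed (adjusted p 0.9998 for both in limma).

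Partners of the 10 genes showed no call either. Of 14 genes of mitophagy and the autophagosome, which act with Bnip3 and Bnip3l, 6 were higher and 8 lower (median -0.018). Map1lc3a, an LC3 protein of the autophagosome membrane, had 6.81, 6.72, 6.91 and 6.88 with eltrombopag, against 6.74, 6.33, 6.52 and 6.54 with vehicle, a log2 difference of 0.30 (SE 0.11). It was higher in 4 of 4 pairs, with groups that overlapped through vehicle array 1. The mitophagy receptor Fundc1 differed by 0.11 (SE 0.10).

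Of 16 clock and D-box genes, where Bhlhe40 and Nfil3 act, 8 were higher and 8 lower (median 0.0036). Csnk1d, a kinase that times the degradation of PER proteins, had 9.62, 9.77, 9.71 and 9.67 with eltrombopag, against 9.89, 9.96, 9.95 and 9.79 with vehicle. Its groups did not overlap either (log2 difference -0.20, SE 0.089), as for 195 of 19505 genes in that direction. Nr1d2, a heme-binding repressor of the clock, differed by -0.20 (SE 0.14).

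Of 15 ligands and receptors of VEGF and adrenomedullin signalling 7 were higher and 8 lower (median -0.00090). Ramp1, a partner of the receptor Calcrl, differed by -0.30 (SE 0.12), lower in 4 of 4 pairs. Flt1, a VEGF receptor, differed by -0.31 (SE 0.16). These 6 genes, from Map1lc3a to Flt1, were those with the smallest p of their lists, and limma gave all 6 an adjusted p of 0.9998. Unadjusted p in limma was 0.0181 for Map1lc3a, 0.0460 for Csnk1d and 0.0328 for Ramp1. Each was the only gene of its list under 0.05, beside 3.33% of all genes.

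**Figure D4:**
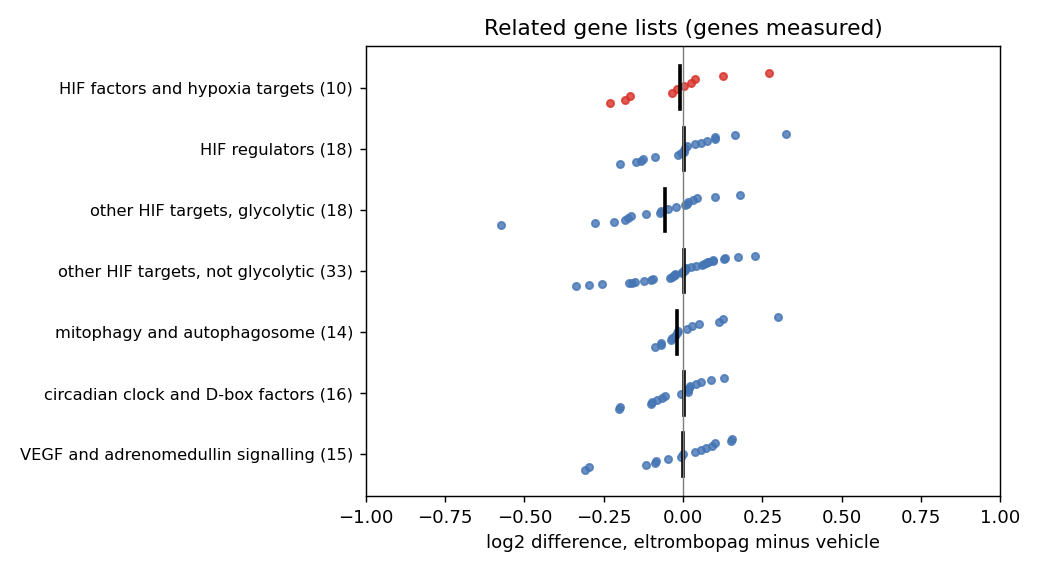
Log2 difference, eltrombopag minus vehicle (horizontal axis), of each measured gene in the 10-gene set (red, top) and in 6 related lists (blue); points within a list are stacked from lowest to highest and the black bar is the list's median. All medians lie between -0.057 and 0.0042, and Aldoc is the point furthest to the left.

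The genes whose values followed those of Hif1a, Epas1 and Vegfa most closely were found by Pearson's r over the 8 arrays among genes brighter than the median gene. With 8 arrays and 9478 candidates high values are to be found for any gene, and the arrays of a number are not independent points. For Vegfa they were Id1 (r 0.989), Pim1 (r 0.978) and Nek6 (r 0.977). Pim1 and Nek6 also passed the F test among numbers (adjusted p 0.0416 for each in limma), and the other 7 genes named here did not. For Hif1a they were Clnk (r 0.971), Zfp984 (r 0.958) and Rere (r 0.956), and for Epas1 they were Pclaf (r 0.961), Ogfrl1 (r 0.947) and Ercc3 (r 0.943). None of these 9 genes passed between eltrombopag and vehicle.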

How the data were processed

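The authors deposited RMA log2 values for each probe set on each array; oligo, limma and RMA are named, with no version, in the submitters' processing notes. About 10 ng of RNA was amplified with a 3' kit, per the labels' protocols. RMA sets arrays to a common distribution, so differences in total RNA are removed. The probe sets' genome build was not given in the sources used here. Of 22206 probe sets, 19572 had 1 gene symbol in the platform annotation, 0 had several and 2634 are unnamed here. For the 55 genes with several, the probe set with the highest mean was used. No filter on dim genes was set. The number of arrays limits the precision.

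Groups and numbers came from the titles. limma 3.58.1 in R 4.3.3 (lmFit, eBayes, two-sided) was run on all genes with a single term for group. P-values were adjusted over all genes by Benjamini-Hochberg, with calls at adjusted p under 0.05. Differences among numbers were tested with limma's F test in a fit of group and number. Deviations from group means correlated at 0.133 to 0.286 across genes for arrays of the same number (-0.203 to 0.167 otherwise). All 4 exceeded 0.1, so equal numbers were treated as pairs, though the labels state no pairing. Eltrombopag array 4 correlated at 0.133 with vehicle array 4 and at 0.167 with vehicle array 3. Eltrombopag array 3 correlated at 0.181 with vehicle array 3 and at 0.166 with vehicle array 4. The check thus does not tell pairs apart within numbers 3 and 4. Values with number as a block are given beside the main ones for some genes only. The fits were tested on simulated data with independent noise and planted shifts larger than any difference between groups among the 10 genes. The simulated test between groups held no differences among numbers, so it does not show the power of that test here. The 10 genes, the lists and the tests were chosen with earlier results of these data known. Named from each related list were the 2 genes with the smallest p, plus 6 HIF regulators. Likeness was read for Hif1a, Epas1 and Vegfa, 3 genes each, without predicted genes and chemosensory receptors. A measured gene was found for 114 of 124 list entries. Motif positions and promoters are from RefSeq.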

Additional observations from a re-analysis of the deposited data

Results flagged for a closer look

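A check for arrays standing apart within their group covered 27 genes, or 54 groups of 4 arrays. It found 2 cases, and about 1 group in 20, here 2.7, would be found by chance. None was among the 10 HIF genes and hypoxia-type targets. For Nr1d2, eltrombopag array 4 had a log2 value of 7.47 and the remaining eltrombopag arrays 7.83 to 7.86, so the gap took up 0.925 of the range. For Eno2, vehicle array 3 had 5.44 and the remaining vehicle arrays 5.85 to 5.91, a gap of 0.868 of the range.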

How the results depend on the processing

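The count of genes called between eltrombopag and vehicle was 0 in all 20 alternatives, with a smallest adjusted p of 0.922, and 0 of the 10 genes and 0 of the related lists' genes were called in any. With the replicate block, which pairs the arrays by number, 0 genes were called and 904 had an unadjusted p under 0.05; the block changed no other call but narrowed the intervals of Bhlhe40, Nfil3 and Vegfa. Bnip3, Bnip3l, Adm and Ankrd37 kept the sign of their difference in every alternative that held them. Leaving out single arrays moved Hif1a between -0.10 and 0.20, Epas1 between -0.14 and 0.057, Arnt between -0.11 and 0.024, Vegfa between -0.20 and 0.22, Bhlhe40 between -0.53 and 0.067 and Nfil3 between -0.41 and 0.023. Where arrays 1 and 2 differ from arrays 3 and 4, leaving out 1 array shifts the difference by itself. Bhlhe40 and Nfil3 were lower with eltrombopag in numbers 1 and 2 only and in numbers 3 and 4 only. Both were also lower without both arrays numbered 3. In that last fit, Hif1a was at -0.10 and Vegfa at -0.10, and 3 of the 10 genes were higher in place of 5. In numbers 3 and 4 only, Hif1a was at -0.0035 and Epas1 at 0.13, 4 glycolytic targets were higher in place of 7, and 5 clock genes in place of 8. In numbers 1 and 2 only, Arnt was at 0.026 and Vegfa at -0.21. With equal medians, Vegfa was at -0.0077. Among genes above the median, 2 VEGF and adrenomedullin genes were higher in place of 7, as fewer were tested. Leaving out single arrays gave 7 to 11 higher HIF regulators, 4 to 8 glycolytic targets and 5 to 9 clock genes. For differences among numbers, leaving out 1 number gave 2 to 13 calls over all genes and 0 among the 10, with fewer arrays in the test. The 4 other alternatives gave 41 or 42 calls and 2 among the 10. The cause of the changes was not tested.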
